A study of Mus musculus with 12 samples.

Results

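Heme is built from glycine, succinyl-CoA and iron and taken apart again by oxygenases and reductases, and 9 mouse genes that span this cycle are described here across 4 groups of cultured hepatocytes. The genes were listed by name, with no threshold on a measured value, at a time when earlier results of these data were known. Alas1, Alad, Urod, Cpox and Fech encode enzymes of heme synthesis, Hmox1, Blvra and Blvrb encode enzymes of heme and biliverdin breakdown, and Slc48a1 encodes a heme transporter. All 9 were found among the 55487 genes listed in the count files, and all 9 were among the 13535 genes with enough counts to be tested.

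RNA was sequenced from primary mouse hepatocytes in 4 groups of 3 libraries. Control cells were left untreated. FAC cells were given FAC alone, an agent whose name is abbreviated in the labels. Lip-1+FAC cells first had liproxstatin-1 on day 2 of culture, which the labels describe as a lipid ROS (reactive oxygen species) scavenger, followed by FAC. MT+FAC cells first had Mito-TEMPO, described as a scavenger of mitochondrial ROS, on the same day, again followed by FAC. No group received a scavenger alone, so the effect of a scavenger without FAC was not measured. Doses, exposure times, strain, sex and age are not given in the sources used here. The labels do not say whether the 3 replicates of a group were separate cultures or animals, so p-values measure only the spread between these libraries, which may be technical.

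In the liver, most newly made heme goes into cytochromes P450 and mitochondrial cytochromes. Synthesis starts in the mitochondrion with aminolevulinate synthase (ALAS1), passes through the cytosol and ends in the mitochondrion, where ferrochelatase inserts ferrous iron, and heme itself represses ALAS1. Heme oxygenase opens the heme ring to biliverdin and releases iron and carbon monoxide, and biliverdin reductase turns biliverdin into bilirubin. Hmox1, the inducible heme oxygenase gene, is repressed by the heme-binding factor BACH1 and activated by NRF2, both of which pair with small MAF proteins at antioxidant response elements.

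Promoter sequences are shown for 4 of the genes, because in FAC against control Alas1 and Urod were called lower and Blvrb higher, and Cpox passed in no comparison. RefSeq promoter windows of the build GRCm38.p6, from 250 bases before to 50 bases after a start site, were matched for 6 of the 9 genes (Blvra, Blvrb, Alas1, Alad, Urod and Cpox). Each is printed 5′ to 3′ on the strand of its gene. Capitals mark matches, on either strand, to the NRF1 motif (GCGC, A, any base, GCGC) in Alas1 and to the antioxidant response element core TGANNNNGC in Blvrb and Cpox.
Alas1, chr9:106247905-106248204, minus strand: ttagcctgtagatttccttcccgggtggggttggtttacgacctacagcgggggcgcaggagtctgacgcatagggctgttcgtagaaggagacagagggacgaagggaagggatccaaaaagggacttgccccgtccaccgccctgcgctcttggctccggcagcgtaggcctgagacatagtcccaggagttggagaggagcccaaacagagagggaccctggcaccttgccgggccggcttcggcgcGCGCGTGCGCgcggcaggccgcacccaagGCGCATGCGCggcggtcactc
Urod, chr4:116994364-116994663, minus strand: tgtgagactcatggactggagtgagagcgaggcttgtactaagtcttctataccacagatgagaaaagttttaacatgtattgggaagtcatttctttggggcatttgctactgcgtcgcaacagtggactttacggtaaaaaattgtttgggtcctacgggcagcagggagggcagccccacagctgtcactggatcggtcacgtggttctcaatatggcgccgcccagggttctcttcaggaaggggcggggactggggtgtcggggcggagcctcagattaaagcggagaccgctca
Blvrb, chr7:27447728-27448027, plus strand: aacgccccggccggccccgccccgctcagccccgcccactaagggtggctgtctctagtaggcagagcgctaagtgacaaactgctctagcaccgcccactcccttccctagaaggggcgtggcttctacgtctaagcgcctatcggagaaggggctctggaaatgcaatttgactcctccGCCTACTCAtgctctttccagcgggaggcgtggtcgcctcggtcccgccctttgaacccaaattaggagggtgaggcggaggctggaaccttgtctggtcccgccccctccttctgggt
Cpox, chr16:58669958-58670257, plus strand: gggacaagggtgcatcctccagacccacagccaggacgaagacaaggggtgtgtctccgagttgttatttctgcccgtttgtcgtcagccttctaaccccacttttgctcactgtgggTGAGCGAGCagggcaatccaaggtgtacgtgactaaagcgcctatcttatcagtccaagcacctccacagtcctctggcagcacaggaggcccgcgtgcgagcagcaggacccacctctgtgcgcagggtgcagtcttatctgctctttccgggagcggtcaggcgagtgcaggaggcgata

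The printed Alas1 window held the NRF1 motif in 2 places, GCGCGTGCGC starting at position 1 and GCGCATGCGC starting at position 30 from the start site. A second Alas1 window (chr9:106247681-106247980), for another start site and not printed here, held the same matches to this motif at positions -224 and -195. This motif, named for the nuclear respiratory factor NRF1, was present in 4.6% of 32851 promoter windows of the same length. The antioxidant response element core was present in 41.3% of those windows. It was found in the Blvrb window as GCCTACTCA on the opposite strand from position -69 and in the Cpox window as TGAGCGAGC from position -132. A second Blvrb window (chr7:27452168-27452467), for another start site and not printed here, held it as TGATAGAGC from position -196 and TGAACTGGC from position -19, and the Blvra window held it as GCTCGGTCA on the opposite strand from position -49. The Urod window held neither motif, but a GC box (GGGCGG) in 3 places and a CCAAT box once. GC boxes also lay in the printed Alas1 window at position -111 and in the printed Blvrb window at positions -234, -219, -158, -25 and 32. GC boxes were present in 35.7% and CCAAT boxes in 37.4% of all windows. None of the matches in these 4 windows overlapped a match to another of the motifs searched, which also included the cAMP response element TGACGTCA and the TATA box TATAAA. The GC content was 65.3% in the Alas1 window, 53.3% in the Urod window, 63% in the Blvrb window and 58.7% in the Cpox window, with a median of 52.7% over all windows.

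**Figure D1:**
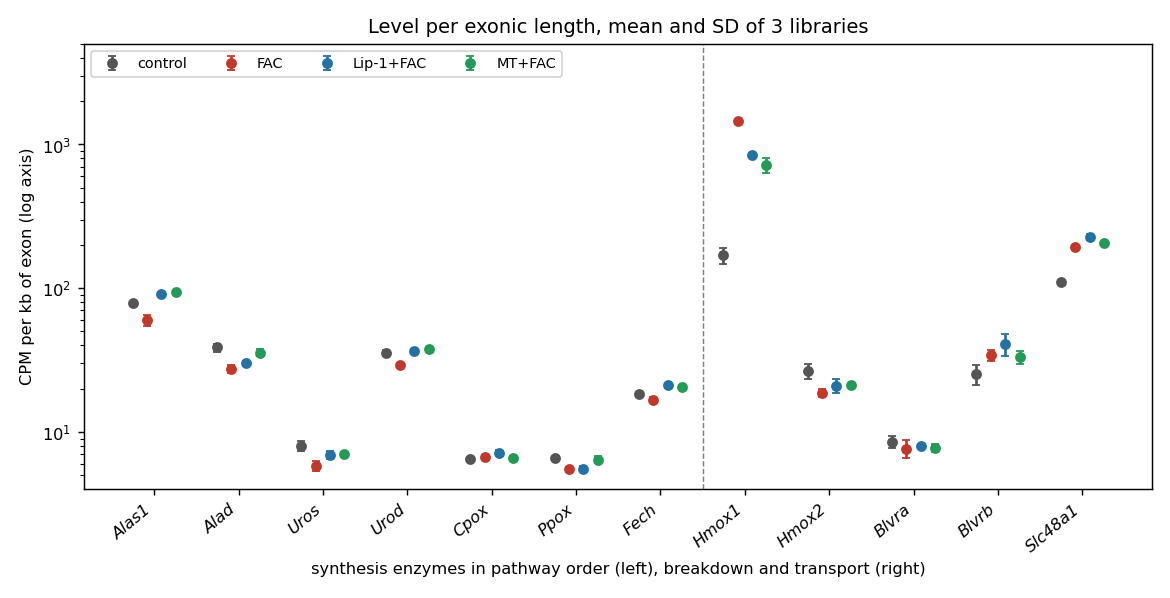
Mean level per exonic length (CPM per kb of exon, log axis) of 7 enzymes of heme synthesis in pathway order and of the genes of heme breakdown and transport, in control, FAC, Lip-1+FAC and MT+FAC libraries. Points are means and bars the SD of 3 libraries. Hmox1 rose from 170 to 1461.9 CPM per kb with FAC, whereas these synthesis enzymes lay between 5.52 and 94.5 CPM per kb in all groups.

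Levels are given as CPM, the share of gene-assigned counts taken by a gene, after scaling of the libraries. Between genes they are compared only per kb of exon. The exon length joins the exons of all annotated transcripts of a gene, 13838 bases for Fech and 1871 bases for Alad, and the order between genes depends on it. In control, Fech was at 254 CPM and Alad at 72.5 CPM before this division. In control cells Hmox1 had the highest level per length of the 9 genes, with 170 ± 21.5 CPM per kb (SD, n = 3), which was above 98% of the tested genes. Slc48a1 followed with 110 ± 3.11 and Alas1 with 78.9 ± 1.19 CPM per kb. Alad at 38.7 ± 2.45 and Urod at 35.6 ± 1.37 had overlapping ranges of mean ± SD. Below them came Blvrb at 25.3 ± 3.99 and Fech at 18.4 ± 0.413. Blvra at 8.55 ± 0.826 and Cpox at 6.52 ± 0.147 CPM per kb were lowest, still above 66.1% and 60.4% of the tested genes. The lowest raw count of Blvra, the gene with the lowest CPM, was 408 reads in a library. With FAC, Hmox1 reached 1461.9 ± 27.8 CPM per kb and Alas1 60.1 ± 5.44, and Hmox1 stayed the highest of the 9 in both pretreated groups, at 844 ± 28.3 and 720 ± 89 CPM per kb.

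In FAC against control, 6 of the 9 genes passed edgeR's quasi-likelihood test at a Benjamini-Hochberg adjusted p under 0.05, compared with 36.6% of all tested genes. Hmox1, Slc48a1 and Blvrb were higher with FAC, where 17.5% of all tested genes were called higher. Alas1, Alad and Urod were lower, where 19.1% of all tested genes were called lower. The 3 FAC libraries did not overlap the 3 control libraries for 7 of the 9 genes, compared with 46.2% of all tested genes. The median log2 fold change was -0.13 over the 9 genes and -0.0061 over all tested genes.

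Hmox1 (ENSMUSG00000005413, chr8:75093621-75100589, plus strand, GRCm38 coordinates, protein-coding, as for the genes below) codes for the enzyme that opens the heme ring. It was at 341, 284 and 270 CPM in the control libraries, at 2595.2, 2580.0 and 2504.3 CPM with FAC, at 1441.9, 1458.1 and 1534.6 CPM in the Lip-1+FAC group and at 1097.1, 1407.6 and 1275.3 CPM in MT+FAC. No library of one group fell within the range of another, and the order from lowest to highest was control, MT+FAC, Lip-1+FAC and FAC. FAC raised Hmox1 8.59-fold, a log2 fold change of 3.10 (SE 0.094, adjusted p = 7.2e-12 in edgeR's quasi-likelihood test). Against FAC alone it fell by 0.79 on the log2 scale in Lip-1+FAC (SE 0.0871, adjusted p = 2.85e-06, edgeR) and by 1.02 in MT+FAC (SE 0.0874, adjusted p = 3.24e-07, edgeR). Both pretreated groups stayed above control, 4.96-fold in Lip-1+FAC (adjusted p = 5.41e-11, edgeR) and 4.23-fold in MT+FAC (adjusted p = 4.83e-10, edgeR). The direct comparison of MT+FAC with Lip-1+FAC gave a log2 value of -0.23, with a 95% interval of -0.41 to -0.05 (adjusted p = 0.237, edgeR), which did not pass the test.

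The comparisons of the pretreated groups with FAC share the FAC libraries with the comparison of FAC with control, so they are not independent of it and their values are only set side by side. In bulk RNA, fewer cells of a type and less RNA per cell cannot be told apart. Macrophages, which carry much Hmox1 in liver, were examined through 12 markers, of which 11 were tested and none was at 0 in a whole group. Their summed level was 233 to 266 CPM in control, 296 to 330 CPM with FAC, 126 to 154 CPM in the Lip-1+FAC group and 150 to 184 CPM in MT+FAC. Cd68, a lysosomal gene, made up most of it. The other 11 markers summed to 15.4 to 21.4 CPM in control, 16.9 to 19.4 CPM with FAC, 16.3 to 19.6 CPM in the Lip-1+FAC group and 15.6 to 24.1 CPM in MT+FAC. With FAC, Cd68 was called higher and Clec4f, which defines Kupffer cells, lower, and the other 9 tested markers passed in neither direction. Against FAC, Cd68 was lower in both pretreated groups, at log2 values of -1.25 (adjusted p = 1.62e-07, edgeR) and -1.03 (adjusted p = 1.31e-06, edgeR), beside -0.79 and -1.02 for Hmox1. Clec4f had means of 1.1, 0.5, 0.907 and 1.17 CPM in control, FAC, Lip-1+FAC and MT+FAC, and Csf1r, the macrophage growth factor receptor, 2.73, 3.61, 2.81 and 2.68 CPM.

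Slc48a1 (ENSMUSG00000081534, chr15:97778520-97792692, plus strand) encodes the transporter HRG1, which moves heme from endosomes and lysosomes into the cytosol. Its level was 298, 295 and 311 CPM in control, 538, 504 and 548 CPM with FAC, 650, 629 and 597 CPM in the Lip-1+FAC group and 568, 562 and 577 CPM in MT+FAC. All FAC-exposed libraries lay far above control, and the libraries with a pretreatment lay above those with FAC alone. FAC raised it 1.76-fold (log2 0.81, SE 0.0526, adjusted p = 4.65e-09, edgeR). Lip-1+FAC was higher than FAC by 0.24 (SE 0.0521, adjusted p = 0.0013, edgeR) and was 2.08-fold above control (adjusted p = 1.59e-10, edgeR). MT+FAC differed from FAC by 0.10 (95% interval -0.0061 to 0.21, adjusted p = 0.122, edgeR), although the libraries did not overlap. Correcting each library for transcript GC content and length (GC and length offsets), an alternative chosen after seeing the data, gave 0.16 with an adjusted p of 0.0165 (edgeR). Hmox1 and Slc48a1 were both higher with FAC, whereas in Lip-1+FAC against FAC Hmox1 was lower and Slc48a1 higher.

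The biliverdin reductases gave smaller values. Blvrb (ENSMUSG00000040466, chr7:27447978-27466144, plus strand), a flavin and biliverdin reductase, was at 63.8, 64 and 83.1 CPM in control and at 88.5, 91.3 and 105 CPM with FAC. It was at 136, 109 and 97.6 CPM in the Lip-1+FAC group and at 99.7, 81.5 and 94.2 CPM in MT+FAC. The FAC libraries lay above the control libraries, but control replicate 3 came within the range of MT+FAC, and FAC and both pretreated groups overlapped. The log2 fold change was 0.43 in FAC against control (SE 0.135, adjusted p = 0.0255, edgeR), a call that was lost without control replicate 1 (0.37), control replicate 2 (0.37) or FAC replicate 3 (0.35). Lip-1+FAC exceeded control by 0.70 (SE 0.135, adjusted p = 0.00198, edgeR). Lip-1+FAC against FAC gave 0.27 (adjusted p = 0.13, edgeR), and with GC and length offsets 0.50 (adjusted p = 0.000473, edgeR). It was also called at 0.37 without replicate 3 of Lip-1+FAC (adjusted p = 0.0428, edgeR) and at 0.27 with no filter on low counts (adjusted p = 0.0048, edgeR). MT+FAC against control gave 0.38 (adjusted p = 0.066, edgeR) but was called in 5 of 16 alternatives. Among them it was 0.52 without control replicate 3 (adjusted p = 0.015, edgeR), 0.56 with GC and length offsets (adjusted p = 0.000687, edgeR) and 0.40 by DESeq2 (adjusted p = 0.00978), and the others were no filter on low counts and only the compared libraries. Blvra (ENSMUSG00000001999, chr2:127070665-127097084, plus strand), the main biliverdin reductase, passed in no comparison. It ranged from 16.8 to 23 CPM over the 12 libraries, the groups overlapped in all 6 comparisons, and FAC against control was -0.16 with a 95% interval of -0.39 to 0.07 (adjusted p = 0.264, edgeR).

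**Figure D2:**
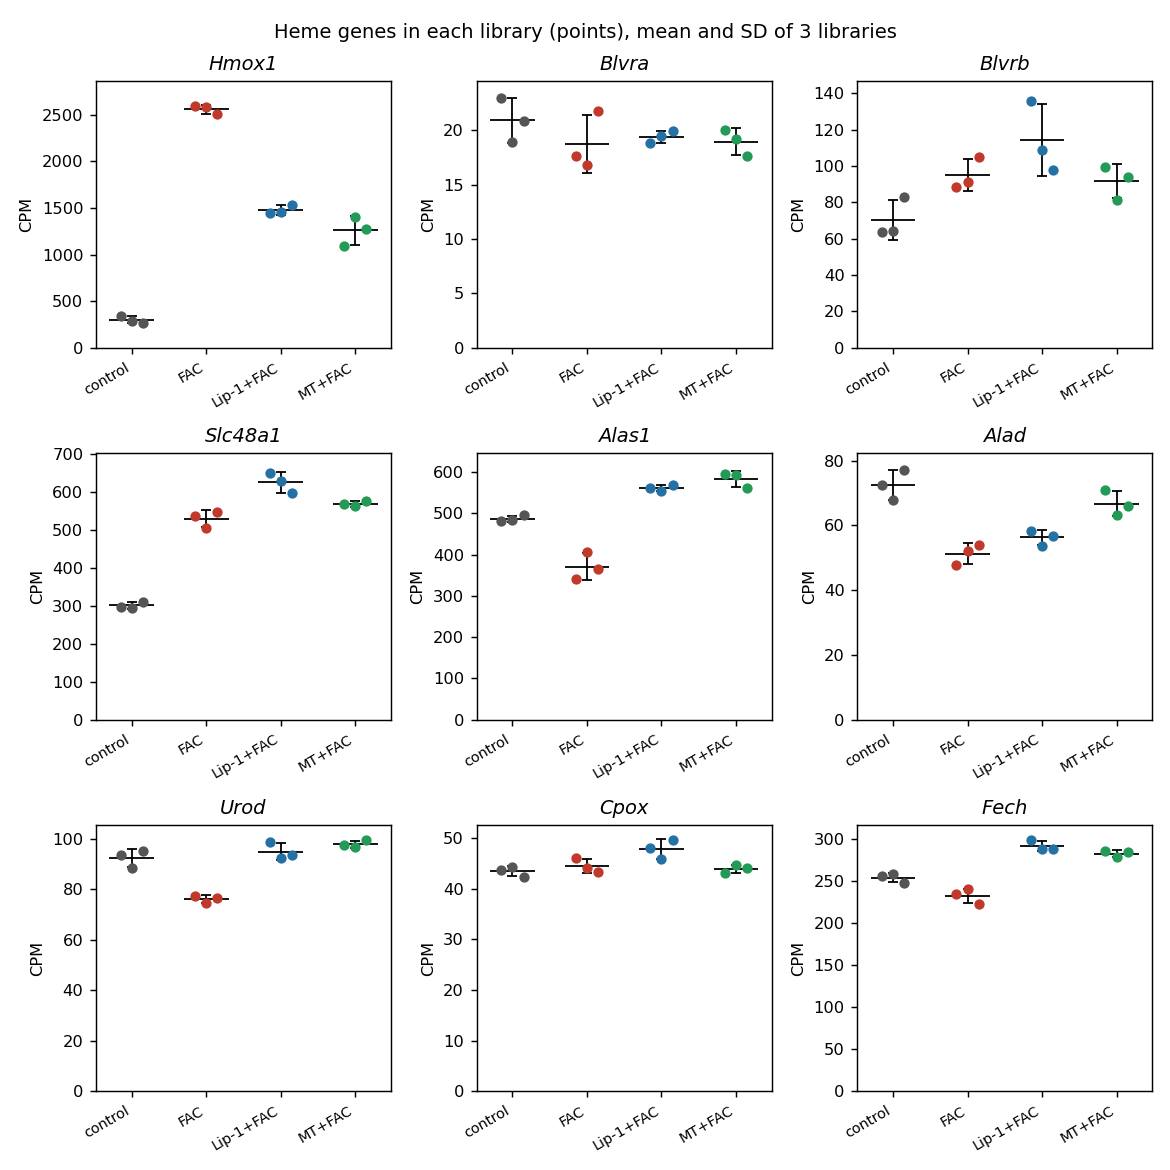
CPM of the 9 heme genes in each library (points), with the mean (line) and SD (bar) of 3 libraries for control, FAC, Lip-1+FAC and MT+FAC, each axis from 0. Hmox1 and Slc48a1 were above control in every FAC-exposed library, whereas Alas1, Alad and Urod had their lowest mean in the FAC libraries.

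Among the synthesis genes, Alas1 (ENSMUSG00000032786, chr9:106233455-106248654, minus strand), the rate-limiting enzyme, was at 482, 483 and 495 CPM in control and at 341, 407 and 365 CPM with FAC. It was at 562, 555 and 569 CPM in the Lip-1+FAC group and at 595, 594 and 561 CPM in MT+FAC. The FAC libraries were lowest, control lay in between, and the pretreated libraries were highest and overlapped each other only. Alas1 fell by 0.39 on the log2 scale with FAC (SE 0.0591, adjusted p = 5.17e-05, edgeR). It was higher than FAC by 0.60 in Lip-1+FAC (SE 0.0592, adjusted p = 4.37e-07, edgeR) and by 0.65 in MT+FAC (SE 0.0592, adjusted p = 2.49e-07, edgeR). Both pretreated groups exceeded control, by 0.21 (adjusted p = 0.013, edgeR) and 0.26 (adjusted p = 0.00475, edgeR), and each of these calls held in all 16 alternatives. An antisense gene, 4930500F10Rik, overlaps 7.53% of the Alas1 exonic bases, and reads that overlap both genes add to neither in the unstranded count column.

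Alad (ENSMUSG00000028393, chr4:62509169-62519918, minus strand) joins aminolevulinate into the first pyrrole. Its level was 72.6, 67.8 and 77 CPM in control, 47.8, 52 and 54.1 CPM with FAC, 58.4, 53.8 and 56.7 CPM in the Lip-1+FAC group and 71, 63.2 and 66.1 CPM in MT+FAC. Control and MT+FAC overlapped at the top, and FAC and Lip-1+FAC overlapped at the bottom. Alad fell by 0.50 with FAC (SE 0.0719, adjusted p = 3.31e-05, edgeR) and was higher by 0.38 in MT+FAC than in FAC (SE 0.0718, adjusted p = 0.000413, edgeR). In Lip-1+FAC it differed from FAC by 0.13 (95% interval -0.02 to 0.29, adjusted p = 0.151, edgeR) and stayed below control, at a log2 value of -0.36 (adjusted p = 0.000882, edgeR). With GC and length offsets the difference from FAC was 0.23 (adjusted p = 0.0102, edgeR). The direct comparison of MT+FAC with Lip-1+FAC gave 0.25 (95% interval 0.10 to 0.40, adjusted p = 0.101, edgeR), with no overlap between the groups, and DESeq2 gave an adjusted p of 0.0404 for it.

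Urod (ENSMUSG00000028684, chr4:116989965-116994413, minus strand) encodes the uroporphyrinogen decarboxylase of the cytosol. It was at 93.6, 88.3 and 95.1 CPM in control, 77.3, 74.5 and 76.7 CPM with FAC, 98.6, 92.4 and 93.7 CPM in the Lip-1+FAC group and 97.5, 96.6 and 99.3 CPM in MT+FAC. The FAC libraries alone stood below the rest, and Lip-1+FAC overlapped control. Urod fell by 0.28 with FAC (SE 0.0563, adjusted p = 0.000832, edgeR), and was higher than FAC by 0.32 in Lip-1+FAC (adjusted p = 0.000218, edgeR) and by 0.36 in MT+FAC (adjusted p = 6.8e-05, edgeR).

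The last members of the pathway did not pass in FAC against control. Cpox (ENSMUSG00000022742, chr16:58670292-58717636, plus strand), coproporphyrinogen oxidase, ranged from 42.3 to 49.6 CPM over the 12 libraries and passed in no comparison. FAC against control was 0.03 for it (95% interval -0.10 to 0.17, adjusted p = 0.737, edgeR). Fech (ENSMUSG00000024588, chr18:64452914-64490251, minus strand), ferrochelatase, was at 256, 258 and 248 CPM in control, 234, 240 and 223 CPM with FAC, 298, 288 and 288 CPM in the Lip-1+FAC group and 285, 278 and 284 CPM in MT+FAC. The groups did not overlap, with FAC lowest and Lip-1+FAC highest. Fech differed by -0.13 in FAC against control (95% interval -0.23 to -0.02, adjusted p = 0.0522, edgeR), just outside the threshold. It was called in 3 alternatives, at -0.14 under upper-quartile scaling (adjusted p = 0.0308, edgeR), -0.12 with the stricter filter of mean CPM 5 or more (adjusted p = 0.0456, edgeR) and -0.14 with GC and length offsets (adjusted p = 0.0341, edgeR). It was higher than FAC by 0.33 in Lip-1+FAC (SE 0.0494, adjusted p = 4.64e-05, edgeR) and by 0.28 in MT+FAC (SE 0.0494, adjusted p = 0.000229, edgeR). Lip-1+FAC exceeded control in Fech by 0.20 (adjusted p = 0.00545, edgeR), and by 0.11 with GC and length offsets (adjusted p = 0.13, edgeR). The excess of MT+FAC over control, 0.15 (adjusted p = 0.0369, edgeR), lost its call in 9 of 16 alternatives, among them leaving out control replicate 1 or 3 or any MT+FAC replicate.

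**Figure D3:**
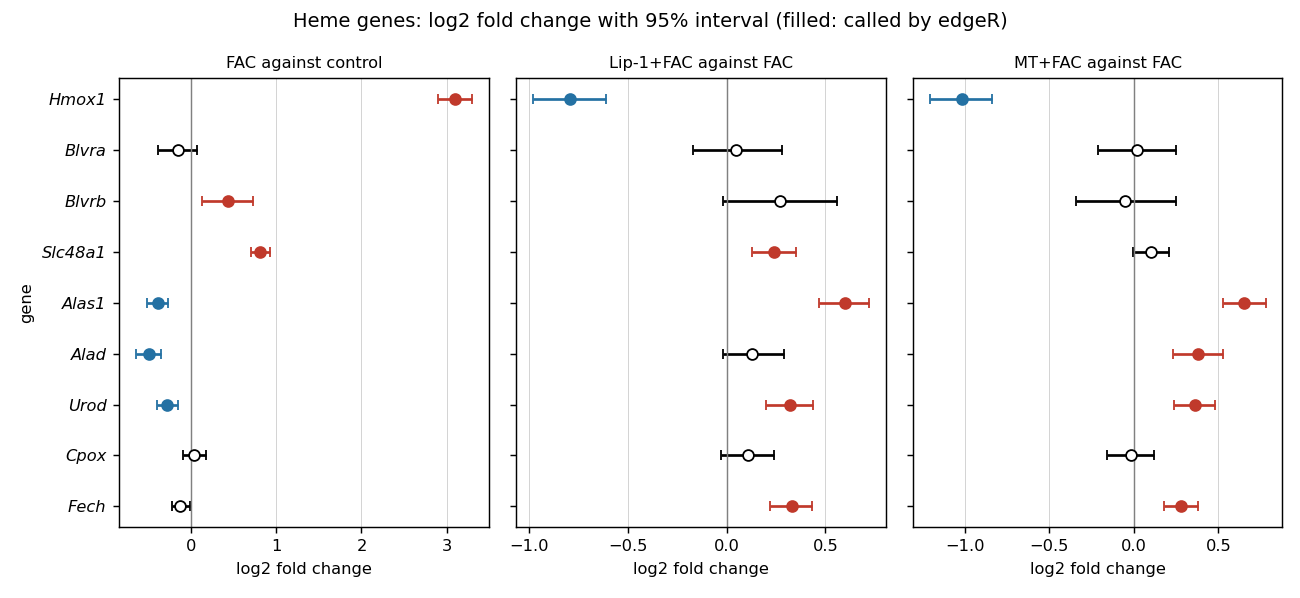
Log2 fold change (x axis) of the 9 heme genes with its 95% interval in FAC against control, Lip-1+FAC against FAC and MT+FAC against FAC. Filled points passed edgeR's test (red higher, blue lower) and open points did not. Alas1, Urod and Fech lay above 0 in both comparisons with FAC and Hmox1 below 0, and the x ranges of the panels differ.

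In Lip-1+FAC against FAC, 5 of the 9 genes were called, Slc48a1, Alas1, Urod and Fech higher and Hmox1 lower, beside 39.9% of all tested genes (20.7% higher, 19.2% lower). The libraries did not overlap for 5 of the 9, beside 50.8% of all tested genes. In MT+FAC against FAC, 5 of 9 were called, Alas1, Alad, Urod and Fech higher and Hmox1 lower, beside 40.9% of all tested genes (21.2% higher, 19.7% lower). The libraries did not overlap for 6 of the 9, beside 52.9% of all tested genes. The median log2 fold changes of the 9 genes were 0.24 and 0.10 in these comparisons, and those of all tested genes were 0.00062 and -0.0011. Lip-1+FAC against control gave 6 calls (30.2% of all tested genes), of which 5 were higher (15.4%) and 1, Alad, was lower (14.8%), and 7 of the 9 did not overlap (43.3%). MT+FAC against control gave 4 calls (19.8% of all tested genes), all higher (9.71%, with 10.1% of all tested genes lower), and 5 of the 9 did not overlap (38.2%). Between the pretreated groups 0 of 9 genes passed edgeR's test, where 1.34% of all tested genes did (0.465% higher and 0.879% lower). At an unadjusted p under 0.05 there were 4, beside 13.3% of all tested genes. DESeq2 called 1 (Alad), beside 3.74% of the genes to which it gave an adjusted p, and the libraries did not overlap for 5 of 9 genes, beside 19.8% of all tested genes.

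The synthesis pathway was then read through 7 enzymes, by adding Uros and Ppox to the 5 members. With FAC, 5 of the 7 were called lower and none higher, beside 19.1% and 17.5% of all tested genes, with a median of -0.28 (-0.0061 over all tested genes). The exceptions were Cpox and Fech. Uros, uroporphyrinogen synthase, fell from a mean of 28.6 ± 2.41 to 20.7 ± 1.64 CPM (SD, n = 3) (log2 -0.47, SE 0.0911, adjusted p = 0.000577, edgeR). Ppox, protoporphyrinogen oxidase, was at 29.7 ± 0.342 CPM in control and 24.9 ± 0.954 CPM with FAC (log2 -0.25, adjusted p = 0.0165, edgeR). The exons of Ppox overlap those of B4galt3 over 17.5% of their bases, and with the stranded count columns summed its value was -0.05 (adjusted p = 0.643, edgeR). That sum can count reads of B4galt3 for Ppox in the shared exons, so it does not separate the genes. The Ppox call also ended without FAC replicate 1 (-0.22). It was lost as well with no filter on low counts (adjusted p = 0.0795, edgeR) and with only the compared libraries (adjusted p = 0.0503, edgeR).

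Against FAC, 4 of the 7 enzymes were called higher in the Lip-1+FAC group and 6 in MT+FAC, and none lower. Of all tested genes 20.7% and 21.2% were called higher in these comparisons, and the medians of the 7 were 0.26 and 0.28. Uros was higher by 0.26 (adjusted p = 0.03, edgeR) and 0.27 (adjusted p = 0.0248, edgeR). Leaving out FAC replicate 1 or 2 ended both of these Uros calls, as did Lip-1+FAC replicate 2 or 3 for the first and MT+FAC replicate 1 or 2 for the second. The first was also lost with no filter on low counts (adjusted p = 0.053, edgeR) and with only the compared libraries (adjusted p = 0.0525, edgeR). Ppox differed from FAC by 0.0059 in Lip-1+FAC (adjusted p = 0.959, edgeR) and by 0.22 in MT+FAC (adjusted p = 0.0322, edgeR). The latter was -0.00033 with the stranded columns summed, a sum that can include reads of B4galt3. The Ppox call in MT+FAC also ended without FAC replicate 1 or 3 and without MT+FAC replicate 1 or 2. It was lost as well with no filter on low counts, with only the compared libraries and with GC and length offsets (0.17, adjusted p = 0.0821, edgeR). Against control, 2 enzymes (Alas1 and Fech) were higher and 2 (Alad and Ppox) lower in Lip-1+FAC, beside 15.4% and 14.8% of all tested genes, and 2 (Alas1 and Fech) were higher and none lower in MT+FAC, beside 9.71% and 10.1%. Between the pretreated groups 0 of the 7 passed edgeR's test, beside 1.34% of all tested genes, with 2 at an unadjusted p under 0.05 (13.3%) and 1 called by DESeq2 (3.74%).

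**Figure D4:**
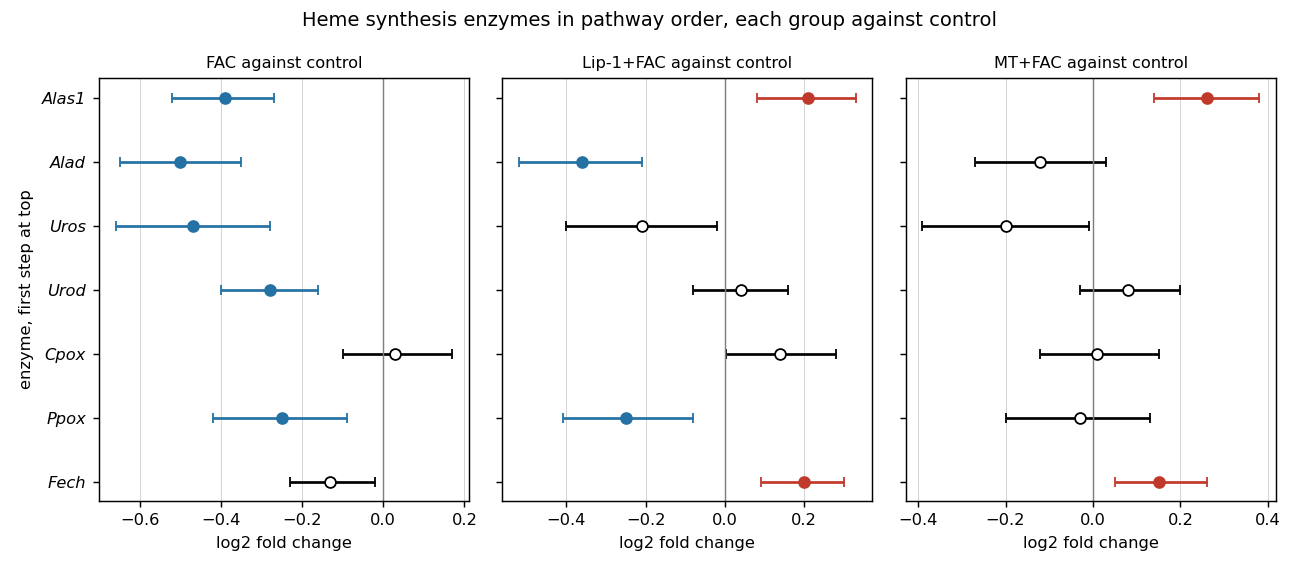
Log2 fold change against control (x axis) with its 95% interval for 7 enzymes of heme synthesis, first step at the top, in FAC, Lip-1+FAC and MT+FAC. Filled points passed edgeR's test (red higher, blue lower). With FAC 5 enzymes lay below 0 and passed, whereas in the pretreated groups Alas1 and Fech lay above control.

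Alas2, the erythroid isoenzyme of Alas1, was low, at 7.88 ± 0.662 CPM in control and 10.1 ± 2.67 CPM with FAC (SD, n = 3; log2 0.34, adjusted p = 0.154, edgeR). Without FAC replicate 2 that value was 0.53 and passed (adjusted p = 0.032, edgeR). It was lower than FAC, at a log2 value of -0.86 in Lip-1+FAC (adjusted p = 0.00133, edgeR) and -0.82 in MT+FAC (adjusted p = 0.00172, edgeR), opposite in sign to Alas1. Of 7 erythroid markers Alas2 was the only one tested, and the globin genes Hba-a2 and Hbb-bt and the membrane gene Slc4a1 had no count in any library. Together with Alas2 the markers summed to 7.18 to 8.5 CPM in control, 7.58 to 12.9 CPM with FAC, 5.06 to 6.3 CPM in the Lip-1+FAC group and 4.81 to 6.87 CPM in MT+FAC.

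Of 14 further genes for synthesis and mitochondrial heme and iron transport, a list that includes Uros, Ppox and Alas2, 13 were tested. With FAC 1 was called higher and 4 lower, so that 5 of 13 were called beside 36.6% of all tested genes, a share near the background, and the median was -0.04. The gene that rose was Slc25a37, the mitochondrial iron importer mitoferrin, which went from 13.4 to 20.5 CPM (log2 0.62, SE 0.111, adjusted p = 0.000279, edgeR). Tmem14c, a porphyrin carrier of the inner mitochondrial membrane, fell by 0.36 (adjusted p = 0.000832, edgeR). Clpx, the mitochondrial unfoldase that acts on ALAS, fell by 0.31 (adjusted p = 0.000432, edgeR). In Lip-1+FAC against FAC 4 of the list were higher and 2 lower (39.9% of all tested genes called), and in MT+FAC against FAC 5 were higher and 1 lower (40.9%). The higher ones include Clpx, at 0.25 and 0.17. With GC and length offsets Clpx was at 0.09 (adjusted p = 0.233, edgeR) and 0.06 (adjusted p = 0.478, edgeR), which ended both calls.

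Hmox2, the constitutive heme oxygenase gene, moved against Hmox1. It was at 58.8, 51.3 and 65.3 CPM in control and at 42.2, 38.3 and 44 CPM with FAC, so that the groups did not overlap. Its log2 fold change was -0.50 (SE 0.0932, adjusted p = 0.000429, edgeR), against 3.10 for Hmox1. In Lip-1+FAC it was at 51.7, 46.4 and 41.2 CPM and in MT+FAC at 46.2, 47.1 and 47.2 CPM, neither of which passed against FAC. Both pretreated groups stayed below control, at log2 values of -0.33 (adjusted p = 0.012, edgeR) and -0.32 (adjusted p = 0.0212, edgeR). Exons of Cdip1 overlap 40.2% of the Hmox2 exonic bases, and with the stranded columns summed the FAC value was -0.46 (adjusted p = 6.58e-05, edgeR). That sum can count reads of Cdip1 for Hmox2 in the shared exons, so it does not separate the genes. With that setting Hmox2 passed against FAC in both pretreated groups, by 0.23 (adjusted p = 0.0159, edgeR) and 0.24 (adjusted p = 0.0123, edgeR), as it did with GC and length offsets, by 0.24 (adjusted p = 0.0219, edgeR) and 0.21 (adjusted p = 0.0396, edgeR).

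Of the 8 genes listed for heme breakdown and bilirubin disposal, 4 rose and 1, Hmox2, fell with FAC, where 17.5% of all tested genes were called higher and 19.1% lower. Abcc2, the exporter of conjugated bilirubin into bile, was at 114, 119 and 105 CPM in control, 200, 193 and 166 CPM with FAC, 381, 404 and 438 CPM in the Lip-1+FAC group and 289, 260 and 257 CPM in MT+FAC. Its 4 groups did not overlap, and Lip-1+FAC was highest. It rose by 0.73 with FAC (SE 0.0763, adjusted p = 1.16e-06, edgeR), lay a further 1.13 above FAC in Lip-1+FAC (adjusted p = 6.73e-09, edgeR) and 0.53 above FAC in MT+FAC (adjusted p = 3.07e-05, edgeR), and MT+FAC was lower than Lip-1+FAC, at a log2 value of -0.60 (adjusted p = 0.000313, edgeR). Cyp2a5, a bilirubin-oxidising cytochrome P450, had means of 433, 626, 1125.9 and 789 CPM in control, FAC, Lip-1+FAC and MT+FAC. Gsta1, a glutathione transferase of the bilirubin-binding ligandin class, rose by 0.81 with FAC (adjusted p = 1.29e-06, edgeR). Both have near-identical paralogs, Cyp2a4 and Gsta2, so their counts are uncertain. Abcc3, a basolateral exporter of conjugated bilirubin, rose by 0.21 (adjusted p = 0.0066, edgeR). Among the 8 genes, 3 were called higher and 2 lower in Lip-1+FAC against FAC (20.7% and 19.2% of all tested genes), and 3 higher and 3 lower in MT+FAC against FAC (21.2% and 19.7%). In MT+FAC against Lip-1+FAC 3 of the 8 passed edgeR's test, all lower, beside 1.34% of all tested genes (0.879% lower).

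Of 12 genes for heme transport and binding, 11 were tested, and with FAC 2 were called higher and 5 lower, beside 17.5% and 19.1% of all tested genes. Hp, the plasma hemoglobin binder haptoglobin, fell from 4110.0 to 2416.8 CPM (log2 -0.77, SE 0.104, adjusted p = 6.18e-05, edgeR) and was at 5151.3 CPM in the Lip-1+FAC group and 5184.6 CPM in MT+FAC. Hebp1, a heme-binding protein, fell by 0.48 (adjusted p = 0.000141, edgeR). The porphyrin exporter Abcg2 fell by 0.25 (adjusted p = 0.00617, edgeR), but by 0.15 with GC and length offsets (adjusted p = 0.0763, edgeR). Slc46a1, a carrier of folate and heme, fell by 0.28 (adjusted p = 0.00262, edgeR). Lrp1, the receptor for heme-hemopexin complexes, rose by 0.43 (adjusted p = 0.000507, edgeR). In both comparisons with FAC 5 of the 11 were called higher and 1 lower, beside 20.7% and 19.2% of all tested genes for Lip-1+FAC and 21.2% and 19.7% for MT+FAC. The higher ones include Hebp1, whose call was lost in 5 of 16 alternatives for Lip-1+FAC and in 10 of 16 for MT+FAC.

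The factors that bind heme or act on these genes were examined as a list of 16, all tested. With FAC 7 were called higher and 3 lower, beside 17.5% and 19.1% of all tested genes. Bach1 was at 8.97, 7.35 and 5.8 CPM in control, 18.7, 14.7 and 15.3 CPM with FAC, 12.9, 10.7 and 12.9 CPM in the Lip-1+FAC group and 9.1, 8.75 and 9.67 CPM in MT+FAC. The FAC libraries were highest, and MT+FAC overlapped control. Bach1 rose by 1.14 with FAC (SE 0.148, adjusted p = 1.09e-05, edgeR), and was lower than FAC, at a log2 value of -0.82 in MT+FAC (adjusted p = 0.00021, edgeR) and -0.42 in Lip-1+FAC (adjusted p = 0.0257, edgeR). The last call ended when FAC replicate 1 (-0.30) or replicate 2 of Lip-1+FAC (-0.33) was left out.

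The small MAF genes rose with FAC. Maff was at 27.6, 24.6 and 19.1 CPM in control and 74.4, 76.8 and 70 CPM with FAC, a 3.11-fold rise (log2 1.64, SE 0.102, adjusted p = 3.51e-09, edgeR). In the Lip-1+FAC group it was at 37.1, 36.1 and 34.5 CPM and in MT+FAC at 24.2, 27 and 25.1 CPM, the latter within the control range. MT+FAC was lower than Lip-1+FAC, at a log2 value of -0.50 (adjusted p = 0.0191, edgeR). It was the 1 gene of the 16 called by edgeR between the pretreated groups, beside 1.34% of all tested genes, with 7 at an unadjusted p under 0.05 (13.3%) and 4 called by DESeq2 (3.74%). Mafk rose by 0.94 (adjusted p = 7.57e-07, edgeR) and Mafg by 0.84 (adjusted p = 1.56e-06, edgeR), the latter being named after its values were seen. Nfe2l2, the gene of NRF2, went the other way, falling from 210 to 171 CPM (log2 -0.29, SE 0.0675, adjusted p = 0.00252, edgeR). It was higher than FAC by 0.20 in Lip-1+FAC (adjusted p = 0.0261, edgeR) and 0.23 in MT+FAC (adjusted p = 0.011, edgeR), but with GC and length offsets these were 0.04 and 0.11 and passed no test. The first call also ended when FAC replicate 1 or 3 or replicate 2 or 3 of Lip-1+FAC was left out, and the second without replicate 3 of MT+FAC (0.19).

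Nr1d1 encodes REV-ERBα, a nuclear receptor repressor that binds heme, and Ppargc1a a coactivator of Alas1. Nr1d1 was at 15, 14.3 and 14.6 CPM in control, 31, 28.5 and 20.6 CPM with FAC, 18.5, 16.5 and 17.7 CPM in the Lip-1+FAC group and 17.1, 16.7 and 18.7 CPM in MT+FAC. FAC was highest, with its replicate 3 nearest to the rest. It rose by 0.87 (SE 0.122, adjusted p = 2.49e-05, edgeR) and was lower than FAC in the pretreated groups, at log2 values of -0.61 and -0.62 (adjusted p = 0.00063 and 0.000558, edgeR). Ppargc1a, at means of 11.6, 7.94, 11.9 and 10.3 CPM in control, FAC, Lip-1+FAC and MT+FAC, fell by 0.55 with FAC (SE 0.132, adjusted p = 0.00326, edgeR) and was higher than FAC by 0.59 (adjusted p = 0.00173, edgeR) and 0.37 (adjusted p = 0.0309, edgeR). The last of these calls ended without any one of FAC replicates 2 and 3 and MT+FAC replicates 1 and 2. It also ended with GC and length offsets (0.30, adjusted p = 0.0585, edgeR). Nr1i2, the pregnane X receptor, which activates Alas1 and P450 genes, fell by 0.99 with FAC (SE 0.12, adjusted p = 5.46e-06, edgeR) and was higher than FAC by 0.64 in MT+FAC (adjusted p = 0.00041, edgeR). In Lip-1+FAC it differed from FAC by 0.22 (adjusted p = 0.167, edgeR), and by 0.33 without replicate 1 of Lip-1+FAC (adjusted p = 0.0455, edgeR), which passed. Both pretreated groups were lower than control, at log2 values of -0.77 (adjusted p = 9.81e-05, edgeR) and -0.35 (adjusted p = 0.0442, edgeR).

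**Figure D5:**
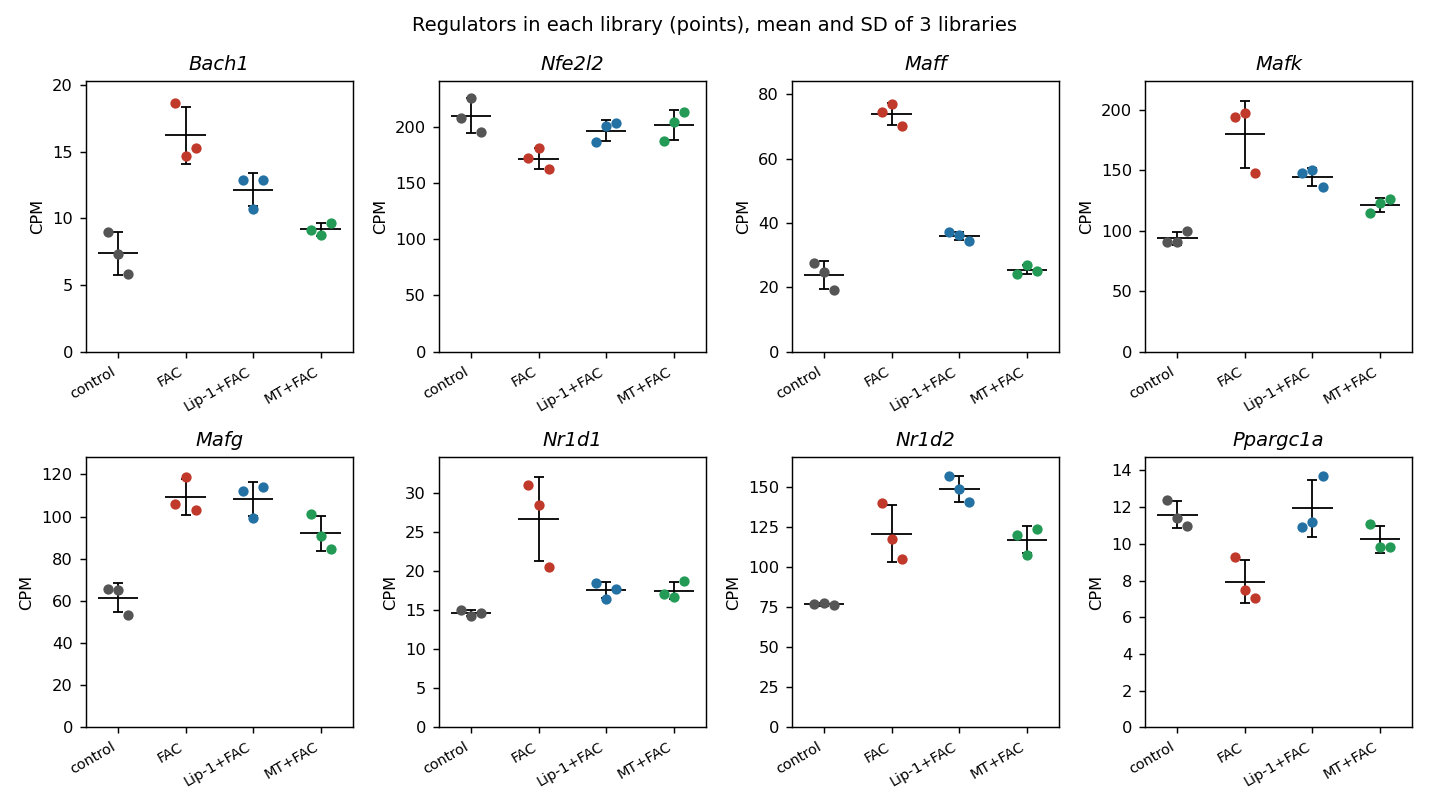
CPM of 8 regulators in each library (points), with the mean (line) and SD (bar) of 3 libraries for control, FAC, Lip-1+FAC and MT+FAC, each axis from 0. Bach1, Maff and Nr1d1 were highest in the FAC libraries and Ppargc1a was lowest there, whereas Nr1d2, like Mafg chosen after its values were seen, was highest in Lip-1+FAC.

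The hepatocyte label was checked with 10 markers, all tested, whose summed level was 54948.8 to 58437.9 CPM in control, 50295.9 to 53300.3 CPM with FAC, 54735.8 to 60359.5 CPM in the Lip-1+FAC group and 59356.0 to 59968.7 CPM in MT+FAC. Most of it was Trf, and the other 9 summed to 18249.7 to 18815.4, 18097.2 to 18769.9, 14353.7 to 15257.7 and 14598.9 to 15919.6 CPM in the same order, with both pretreated groups below the other groups. Cps1, the first enzyme of the urea cycle, fell with FAC from 1695.4 to 711 CPM (adjusted p = 0.000191, edgeR) and was at 1034.5 and 1059.5 CPM in the pretreated groups. Of 6 cholangiocyte markers 5 were tested, and they summed to 58.6 to 69 CPM in control, 98.4 to 123 CPM with FAC, 110 to 125 CPM in the Lip-1+FAC group and 104 to 145 CPM in MT+FAC, with Cftr at 0 in the FAC libraries. Spp1 was at means of 40.7, 43.6, 101 and 103 CPM, and without it the sums were 20.9 to 23.8, 58 to 74.3, 12.4 to 15.7 and 17.1 to 20.1 CPM, highest with FAC and below control in both pretreated groups. The other 4 tested, Sox9, Krt19, Krt7 and Epcam, were each called higher with FAC, Sox9 from 17.4 to 53.4 CPM (adjusted p = 9.93e-09, edgeR). Of 8 stellate cell markers 6 were tested, with sums of 12.5 to 18, 21.5 to 23, 10.9 to 12.9 and 13.3 to 14.1 CPM in the same order. Reln was at means of 7.46, 16.1, 4.53 and 5.23 CPM, and the other 7 summed to 6.71 to 10.3, 5.41 to 7.11, 6.3 to 8.04 and 7.89 to 8.81 CPM. Of 8 endothelial markers 7 were tested, with sums of 39.2 to 39.9, 37 to 38.4, 30.8 to 31.1 and 30.9 to 34.6 CPM. The 7 leukocyte markers summed to at most 0.432 CPM. Reads assigned to no gene made up 20.2% to 22% of listed reads in control, 22.2% to 24.2% with FAC and 18.8% to 19.6% in the pretreated groups, so that FAC was above control and the pretreated groups below it. The part of these cells and of these reads in the heme gene values was not tested. The libraries held 22991598 to 31683376 counts assigned to genes, and FAC replicate 2 held 52529278. The file of the latter is marked as combined, without saying what was combined. When that library was thinned to the median of the others, the numbers of heme genes called in each comparison did not change.

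The genes whose log2 CPM followed Hmox1 most closely over the 12 libraries, among 9000 genes, were Dcaf12 (Pearson r = 0.976), Ifrd1 (0.975), Prrc2b (0.973), Zdhhc18 (0.97) and Pgs1 (0.969). The span of Hmox1 was far wider, since Ifrd1, the widest of these, went from 94.7 CPM in control to 225 CPM with FAC, 172 CPM in the Lip-1+FAC group and 156 CPM in MT+FAC. For Alas1 they were Xrcc5 (0.978), Ggcx (0.977), Mbtps1 (0.973), Slc22a27 (0.971) and Inhbc (0.97). Ggcx, the vitamin K-dependent carboxylase, had means of 35.7, 23.5, 44.8 and 46.7 CPM in control, FAC, Lip-1+FAC and MT+FAC. Among the 9 heme genes, Alas1 followed Fech (0.923) and Urod (0.915), and Hmox1 followed Slc48a1 (0.865) and ran against Alad (-0.847). These coefficients describe 12 libraries that fall into 4 groups of 3 and carry no test.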

How the data were processed

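RNA of 12 libraries was made into cDNA with SMART-Seq v4, an unstranded kit, and Nextera XT libraries were sequenced on a NovaSeq, per the labels' protocols. The authors deposited raw gene counts per library in the layout of STAR, and STAR and the build GRCm38 are named per the submitters' processing notes, with version and annotation not given in the sources used here. The unstranded count column was used. Reads mapped to several places add to no gene in it. Reads that overlap exons of several genes also add to none of them there. The stranded columns, when summed, can count such reads for neighbours on opposite strands. Lines that name no gene, 18.8% to 24.2% of listed reads, were left out. Names, coordinates and lengths came from GENCODE M21 (55227 of 55487 identifiers matched), and promoters from RefSeq.

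Counts were filtered with filterByExpr, scaled by TMM and tested with edgeR 4.0.16 in R 4.3.3 (quasi-likelihood F test, all 12 libraries, 4 group means, no covariate, two-sided, Benjamini-Hochberg over 13535 genes, threshold 0.05). SEs follow from the log2 fold change and the F value. TMM factors were 0.989 to 1.01 and the biological coefficient of variation 9.71%. The fit was checked on simulated data. Short matches to other transcripts, of at most 478 bases, were found for 4 of the 9 genes with blastn 2.17.0+ at 95% identity. Alternatives were RLE and upper-quartile scaling, 2 other filters, DESeq2 1.42.0, the stranded columns summed, only the compared libraries, the replicate block, thinning of the deepest library, leaving out each library in turn and, chosen after seeing the data, per-library offsets for GC content and length.

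The 9 genes, the 5 pathway lists and the marker lists were chosen with earlier results of these data known, and a few listed genes are not reported here. Besides the 9, up to 5 genes per list were named by the largest absolute log2 fold change among those called in FAC against control, and Uros, Ppox, Alas2, Hmox2, Bach1, Nfe2l2, Nr1d1 and Ppargc1a always. For likeness, the 5 genes most correlated with Hmox1 and with Alas1 were named.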

Additional observations from a re-analysis of the deposited data

How the results depend on the processing

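Of 2205 values of single genes under alternatives, 2070 kept direction and call, 86 lost and 27 gained a call and 22 changed sign. In MT+FAC against Lip-1+FAC, 182 genes were called, but 477 with no filter, 312 with only the compared libraries, 435 by DESeq2, and 74 to 156 without one library. The members called there were 0, but 2 with no filter (Hmox1 and Blvrb), 1 with the offsets (Slc48a1) and 1 by DESeq2 (Alad). Libraries whose omission moved the count of all genes by over 1.5 times were replicates 1 (76) and 2 (77) of Lip-1+FAC and 2 (86) and 3 (74) of MT+FAC. Without one library, 5 to 6 members were called in FAC against control, 5 to 6 in Lip-1+FAC against FAC and 5 in MT+FAC against FAC. Sign changed as follows, the cause was not tested, and only the value of Ppox in MT+FAC against FAC had passed the test. In Lip-1+FAC against FAC, Ppox was -0.0019 (RLE), -0.01 (mean CPM of at least 5), -0.09 (stranded columns), -0.0031 (only the compared libraries) and -0.03 to 0.04 without one library, Blvra was -0.02 to 0.18 without one library and Cpox -0.03 with the offsets. In MT+FAC against FAC, Ppox was -0.00033 (stranded columns), Blvra -0.00037 (stranded columns), -0.0034 (thinned) and -0.05 to 0.14 without one library, and Blvrb -0.11 to 0.03 without one library and 0.14 with the offsets. In MT+FAC against Lip-1+FAC, Blvra was -0.07 to 0.01 without one library and Alas1 -0.0011 with the offsets. In MT+FAC against control, Cpox was -0.0028 to 0.03 without one library and -0.02 with the offsets. With the offsets Urod was called above control, at 0.25 in the Lip-1+FAC group and 0.29 in MT+FAC. The replicate numbers did not pair the libraries: 3 of 18 pairs correlated above 0.1 (-0.249 to 0.164), and 4 of 12 libraries correlated best with their own number. With the replicate block 4863, 5278 and 5488 genes were called in FAC against control and in Lip-1+FAC and MT+FAC against FAC, instead of 4960, 5397 and 5541, and the numbers of heme genes called did not change. Counts of 3 libraries a group limit the smaller differences.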

Other observations

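Heme is also the cofactor of many hepatocyte proteins, and 13 of 16 genes listed for such proteins and their electron donor were tested. With FAC 3 were called higher and 5 lower by edgeR, beside 17.5% and 19.1% of all tested genes, with a median log2 fold change of -0.10. Against FAC, 7 were called higher and 4 lower in Lip-1+FAC, beside 20.7% and 19.2% of all tested genes. In MT+FAC 7 were higher and 3 lower, beside 21.2% and 19.7%. Tdo2, the tryptophan dioxygenase, had means of 71.9 CPM in control, 42.4 CPM with FAC, 102 CPM in the Lip-1+FAC group and 85 CPM in MT+FAC. It fell by 0.76 with FAC (SE 0.102, adjusted p = 2.48e-05, edgeR) and was higher than FAC by 1.27 (adjusted p = 1.08e-07, edgeR) and 1.00 (adjusted p = 1.49e-06, edgeR) in the pretreated groups. Ido2, a related dioxygenase, fell by 0.87 from a low level of 3.36 CPM (adjusted p = 0.00889, edgeR). Cyp3a11, a drug-metabolising P450, fell by 0.70 with FAC (adjusted p = 6.5e-06, edgeR) and was higher than FAC by 0.78 (adjusted p = 1.72e-06, edgeR) and 0.60 (adjusted p = 2.95e-05, edgeR).

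Por, the reductase that passes electrons to heme oxygenase and P450 enzymes, and Cyp2e1, an ethanol-oxidising P450, went the other way. Por had means of 827 CPM in control, 1087.8 CPM with FAC, 614 CPM in the Lip-1+FAC group and 643 CPM in MT+FAC. It rose by 0.40 with FAC (SE 0.0706, adjusted p = 0.000272, edgeR) and was lower than FAC, at log2 values of -0.82 (adjusted p = 9.53e-08, edgeR) and -0.76 (adjusted p = 3.37e-07, edgeR). Cyp2e1 was at a mean of 335 CPM in control and 449 CPM with FAC, and its rise with FAC of 0.42 (adjusted p = 0.0207, edgeR) lost its call without control replicate 2 (0.36), control replicate 3 (0.36) or FAC replicate 3 (0.31). Against FAC it was lower, at log2 values of -1.66 (adjusted p = 1.44e-06, edgeR) and -1.49 (adjusted p = 3.99e-06, edgeR). Ugt1a1, which conjugates bilirubin and shares exons with the other genes of its locus so that its counts are uncertain, was chosen after its values were seen. It was at 38.1, 29.3 and 52.4 CPM in control, 42.5, 36.9 and 49.5 CPM with FAC, 21.9, 23.1 and 13.4 CPM in the Lip-1+FAC group and 15.6, 18.9 and 21.1 CPM in MT+FAC. The pretreated libraries lay below both other groups, at log2 values of -1.13 (adjusted p = 0.00485, edgeR) and -1.21 (adjusted p = 0.00333, edgeR) against FAC.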
